A study of Mus musculus with 9 samples.

Results

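RNA was sequenced from B16, a cultured mouse melanoma line, and compared between cells carrying the hairpin shAD4-2 (3 libraries) and cells carrying a control hairpin, shControl (3 libraries). These 6 of the 9 libraries of the study make up the comparison. The other 3 come from cells carrying shAD4-1, the first of 2 hairpins, and are used here to test where the second hairpin differed from it and, in the fit, to estimate the spread. The series concerns ADGRL4, a receptor of the adhesion G protein-coupled class, with its title naming tumour dormancy, Gαs, YAP1 and the growth of vessels. The comparison asks which transcripts changed in cells with the second hairpin. The labels give no treatment and no time point, and all 3 groups share the same culture conditions. Per the design text each group has 3 biological replicates. Each hairpin stands for a single knockdown derivative of the line, so p-values measure the spread between libraries of these derivatives and not between independently made lines. Adgrl4 itself is not analysed here, and the labels were not checked by it.

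The count table lists 21676 genes. The 13807 genes tested held 99.968% of the reads. Totals of gene counts ran from 31.5 M to 36.4 M reads in the control libraries and from 31.3 M to 36.4 M in the shAD4-2 libraries. Among the controls, replicate 1 was the odd library, with a chi-square per degree of freedom of 12.3 and 17.8 against the others and 3.41 between those. Without it 9704 genes were called against control, and the number of members rising or falling against control changed by at most 3 in each gene list below. Between the hairpins 4937 genes were called without it, in place of 3777, and lists moved further: cytosolic ribosomal proteins called lower went from 11 to 20 and nuclear genes of respiratory complexes II to V called higher from 12 to 20. The 13 protein genes of mitochondrial DNA took up a share of reads of 2.45 ± 0.156% in control and 3.72 ± 0.15% in shAD4-2 libraries (SD, n = 3). This is a difference that the exact permutation test, two-sided, put at p = 0.1, the smallest value that 3 against 3 libraries allow. This share moved with every comparison against control below, and with those genes left out of the fit 9516 genes were called in place of 9522. Pigment cell markers were present at a summed 4709 to 5437 FPKM (deposited values, scaled to gene length and library) in control and 4467 to 4880 FPKM in shAD4-2 libraries. Of 8 leukocyte markers 6 lay under 1 FPKM in every library, Ptprc and Cd3d at 0 in the control and shAD4-2 libraries. The sum of the 8 went from 2.74 to 3.12 FPKM in control to 6.91 to 7.47 FPKM with shAD4-2, mostly through Lyz2 (0.177 to 4.01 FPKM). The sum of 6 fibroblast markers went from 0.818 to 1.04 to 1.98 to 2.27 FPKM, and the 5 endothelial and 2 keratinocyte markers stayed under 1 FPKM in every library. The part of these markers in single results was not tested.

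Values below are counts per 1000000 reads of scaled library size (CPM) for each library, or mean ± SD with n = 3. Log2 fold changes are shAD4-2 minus control, with SEs and Benjamini-Hochberg adjusted p-values from edgeR's quasi-likelihood test over all 13807 genes. A gene is said to rise or fall where its adjusted p was under 0.05. By this rule 9522 genes, 69.0% of those tested, differed: 4724 rose (34.2%) and 4798 fell (34.8%). Most of these differences were small. Among the genes called, 5474 (57.5%) changed by less than 1.5-fold, and the median absolute log2 fold change was 0.497, a 1.41-fold change. At least 2-fold rises numbered 882 (6.39%) and falls 1151 (8.34%), of which 158 and 132 were at least 8-fold. The CPM of the 2 groups did not overlap for 70.6% of the tested genes, 35.0% higher and 35.6% lower with shAD4-2. Most genes named below were picked from those called and without overlap. A lack of overlap in them thus follows from the choice and describes their levels only. Since 69.0% of genes were called, a list of genes stands out here by its direction and size rather than by the number of its members called, and lists are described by these beside the median of all genes, -0.011. The same fit gave 3777 genes, 27.4%, that differed between shAD4-2 and shAD4-1, with 1844 (13.4%) higher and 1933 (14.0%) lower with shAD4-2. Each count of list members called between the hairpins below is to be read beside these shares.

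**Figure D1:**
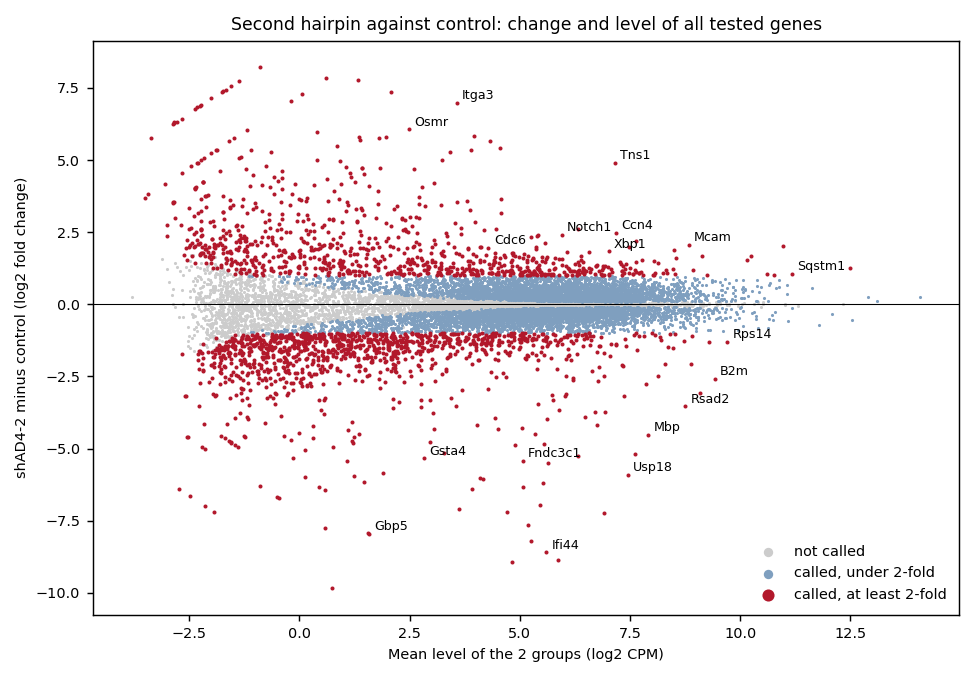
Log2 fold change of shAD4-2 over control (vertical axis) against mean level (horizontal axis, log2 CPM) for each tested gene; grey points were not called, blue points were called at under 2-fold and red points at 2-fold or more. Antiviral genes such as Ifi44 and Usp18 lie at the bottom, Tns1, Itga3 and Osmr at the top, and most called genes lie within 2-fold of 0.

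Interferon-stimulated genes are switched on when interferons, secreted signals of viral infection, bind their receptors and the kinases JAK1 and TYK2 phosphorylate transcription factors such as STAT2. These act with IRF9 and bind the interferon-stimulated response element in the promoters of antiviral genes. Many tumour lines keep this programme on at a low level without added interferon, and it also sets how much MHC class I, the display platform for cytotoxic T cells, a cell makes.

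All 35 tested interferon-stimulated genes fell in shAD4-2 cells, 34 of them at least 2-fold, with a median log2 fold change of -3.18. Rsad2, the antiviral enzyme viperin, stood at 811, 799.7 and 758 CPM in the control libraries and at 67.6, 65.1 and 70.96 CPM in the shAD4-2 libraries, an 11.6-fold fall (log2 fold change -3.54, SE 0.05, adjusted p = 1.31e-20). Every shAD4-2 library lay far below every control library. Usp18, which damps interferon receptor signalling, went from 358, 348 and 327 CPM to 6.12, 5.95 and 5.00 CPM (60.3-fold, log2 SE 0.07), and the groups were again wide apart. Oas1a, a sensor that makes the second messenger activating RNase L, went from 159, 151 and 155 CPM to 4.23, 3.95 and 3.84 CPM (38.6-fold). Ifit3, which binds foreign RNA together with its relatives, went from 392, 375 and 375 CPM to 10.8, 8.70 and 11.6 CPM (36.7-fold). Neither gene's groups overlapped. Oas1a and Ifit3 have near-identical neighbours in the genome (Oas1g and Ifit3b here), and how the counting divided shared reads was not tested, so their separate folds are uncertain.

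The promoters of 3 of these genes show the element through which STAT2 and IRF9 are known to act. They are given here because every tested member of the list fell, as RefSeq gives them on GRCm38.p6, from 250 bases before to 50 after the start, 5′ to 3′ on the gene's strand, with matches to the core GAAANNGAAA on either strand in capitals. Rsad2 lies at chr12:26456403-26456702 (minus strand), Oas1a at chr5:120907476-120907775 (minus strand) and Ifit3 at chr19:34583279-34583578 (plus strand).
Rsad2: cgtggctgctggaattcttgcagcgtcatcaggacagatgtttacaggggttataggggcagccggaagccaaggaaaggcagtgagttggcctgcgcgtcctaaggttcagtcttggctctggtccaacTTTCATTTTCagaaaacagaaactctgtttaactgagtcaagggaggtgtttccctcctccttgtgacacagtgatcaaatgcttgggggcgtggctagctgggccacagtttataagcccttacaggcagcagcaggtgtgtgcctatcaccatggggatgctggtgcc
Oas1a: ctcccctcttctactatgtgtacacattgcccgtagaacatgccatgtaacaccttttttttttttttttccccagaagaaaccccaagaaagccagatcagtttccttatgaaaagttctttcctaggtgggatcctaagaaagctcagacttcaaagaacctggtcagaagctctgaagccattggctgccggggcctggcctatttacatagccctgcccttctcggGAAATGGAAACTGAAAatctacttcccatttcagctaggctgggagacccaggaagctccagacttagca
Ifit3: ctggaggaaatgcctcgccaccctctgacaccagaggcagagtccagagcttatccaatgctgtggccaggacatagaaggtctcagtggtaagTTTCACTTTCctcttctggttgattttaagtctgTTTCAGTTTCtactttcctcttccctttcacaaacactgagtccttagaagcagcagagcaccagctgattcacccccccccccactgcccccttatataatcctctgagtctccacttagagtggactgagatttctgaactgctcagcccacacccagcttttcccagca
In Rsad2 the match starts 120 bases before the start of the gene, in Oas1a 2 overlapping matches lie 20 and 14 bases before it, and in Ifit3 2 matches lie 156 and 122 bases before it. Among the 29 promoter windows found for 26 of the 35 tested members, 14 windows (48.3%) of 13 members held the core, against 2.82% of the 14010 windows of tested genes and 3.44% of 32851 mouse promoter windows. A match describes the letters and is not a bound site.

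Transcription factors of the pathway fell with its targets. Irf7, the amplifier of interferon production, went from 47.7, 41.9 and 40.8 CPM to 2.36, 1.52 and 2.55 CPM (log2 fold change -4.33, SE 0.13), Stat2 fell 4.75-fold and Irf9 3.61-fold. The 2 groups of Irf7 did not overlap. The receptor and its kinases were mixed: of 23 receptor and JAK-STAT genes 8 rose and 7 fell. The receptor chains Ifnar1 and Ifngr1 rose by 0.31 and 0.51 on the log2 scale, whereas the chain Ifnar2 (-0.71) and the kinase Jak2 (-1.06) fell. Stat6, the transcription factor of interleukin-4 signalling, rose from 61.03 ± 8.71 to 152 ± 1.16 CPM. Of 17 genes of nucleic acid sensing, which starts the response, 6 fell, 3 rose and 8 were not called. The adaptors Mavs (-0.03) and Sting1 (-0.02) had log2 fold changes near 0 that did not pass the test. Adar, which edits double-stranded RNA, fell 1.68-fold.

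Guanylate-binding proteins and immunity-related GTPases, which attack the membranes around intracellular pathogens, fell for 12 of 12 members, each at least 2-fold, with a median of -4.72. Gbp2 stood at 80.2, 79.3 and 74.5 CPM in control and 7.48, 6.18 and 7.83 CPM in shAD4-2 libraries, and Igtp at 102, 87.1 and 85.5 and 6.23, 5.82 and 5.41 CPM. Control libraries lay above shAD4-2 libraries for both without overlap. At lower levels, Gbp5 fell from 632 reads in all controls to 2 reads in all shAD4-2 libraries (scaled ratio 0.0034, 95% interval 0.000411 to 0.0123, counting error only), and Iigp1 from 607 reads to 2 (0.00354, 0.000427 to 0.0128). The members of this family share sequence. With shAD4-2 the interferon programme stood lower than with shAD4-1 as well: 26 of 35 interferon-stimulated genes and 6 of 12 GTPases were called lower against the first hairpin, where 14.0% of all genes were, and none was called higher. Their median difference was -0.57 and -0.54 on the log2 scale. Ifi44, an interferon-induced cytoplasmic protein, stood at 104, 92.8 and 92.4 CPM in control libraries, 0.579, 0.794 and 0.661 with shAD4-1 and 0.111, 0.420 and 0.226 with shAD4-2, so the second hairpin lay below the first in each library (difference -1.45, SE 0.34).

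Genes of MHC class I presentation fell for 14 of 16 members, 10 of them at least 2-fold, with a median of -1.45. B2m, the light chain shared by class I molecules, went from 1158, 1169.9 and 1192 CPM to 193, 196 and 196 CPM (log2 fold change -2.59, SE 0.04, adjusted p = 4.20e-19). All 3 shAD4-2 libraries lay below all controls. Nlrc5, the transactivator of class I genes, fell 18.05-fold, from 30.8 ± 1.18 to 1.70 ± 0.266 CPM. The heavy chain H2-D1 went from 509.7 ± 56.2 to 121 ± 1.64 CPM and H2-K1 from 162 ± 23.04 to 60.2 ± 2.78 CPM, with the reservation that class I heavy chains share reads. The peptide transporter genes Tap1 (-1.94) and Tap2 (-1.68) and the loading factor Tapbp (-0.91) fell on the log2 scale given. The 2 members that rose were Psme1, a proteasome activator (0.48), and Tapbpl, a peptide editor (0.84). Between the hairpins 2 of the 16 members were called higher with shAD4-2, 1 without shAD4-2 replicate 1, and 2 lower. Over all genes 13.4% were called higher and 14.0% lower.

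Ligands by which tumour cells restrain or engage immune cells moved both ways, 5 of 12 up and 5 down. Lgals9, a galectin that binds T cells, went from 201, 195 and 183 to 15.4, 14.2 and 13.4 CPM. Cd274, the checkpoint ligand PD-L1, went from 27.8, 32.5 and 36.8 to 13.2, 13.6 and 14.5 CPM, and Cd47, the signal that restrains phagocytes, from 90.6, 90.3 and 89.3 to 34.7, 33.9 and 35.3 CPM. For each of the 3 the control libraries lay above all shAD4-2 libraries. Cd276, the ligand B7-H3, went the other way, from 14.4 ± 1.83 to 29.9 ± 1.94 CPM, and Pvr, a ligand of the receptors TIGIT and DNAM-1, rose 1.67-fold. Among chemokines and cytokines 7 of 14 fell at least 2-fold and 3 rose. Cxcl10, which draws T cells, fell 4.27-fold, from 257 ± 8.41 to 60.3 ± 3.09 CPM. Cxcl1, which draws neutrophils, fell 15.5-fold and Csf1, the growth factor of macrophages, 4.40-fold, from 263 ± 28.5 to 59.6 ± 0.832 CPM. Il11, a cytokine of the interleukin-6 family, rose from 0.263 ± 0.146 to 6.89 ± 0.595 CPM. In the NF-kB list the feedback genes Tnfaip3 (-2.44) and Nfkbiz (-1.67) fell while the subunits Nfkb1 (0.69) and Rela (0.50) rose, on the log2 scale. In all 8 of 16 members rose and 5 fell.

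Proteins that enter the secretory pathway fold in the endoplasmic reticulum (ER) with the help of chaperones, and when folding falls behind, the unfolded protein response raises these chaperones through XBP1, ATF6 and, by way of PERK, ATF4. ATF4 also answers amino acid shortage and raises the enzymes that make serine, glycine and asparagine. Melanoma cells export large amounts of glycosylated pigment enzymes through this route.

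Of 21 ER chaperone genes 17 rose and 3 fell (median 0.43). Hspa5, the chaperone BiP and the ER's main folding sensor, stood at 1040.0, 1016 and 981 CPM in control and 2118, 2044 and 2171 CPM in shAD4-2 libraries, a 2.09-fold rise (log2 SE 0.04, adjusted p = 2.68e-14). No shAD4-2 library overlapped the controls. Xbp1, which carries one arm of the stress response, had the largest rise of the list, from 60.4, 53.4 and 56.3 to 206, 198 and 202 CPM (3.57-fold). The lectin chaperone Calr rose 1.71-fold, the ER form of HSP90, Hsp90b1, 1.65-fold, and Herpud1, which helps remove misfolded proteins, 1.99-fold. Pdia4, a disulfide isomerase, went against the list, from 405 ± 30.6 to 280.4 ± 11.2 CPM, as did Ppib and Edem1 by under 1.5-fold. Between the hairpins 1 of the 21 was called higher and 3 lower with shAD4-2, where 13.4% and 14.0% of all genes were.

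The promoter of Hspa5 carries the ER stress element, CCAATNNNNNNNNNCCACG, bound by NF-Y and ATF6 in textbook accounts, and is printed in the same way from chr2:34771840-34772139 of GRCm38.p6 (RefSeq, plus strand), with the element in capitals.
Hspa5: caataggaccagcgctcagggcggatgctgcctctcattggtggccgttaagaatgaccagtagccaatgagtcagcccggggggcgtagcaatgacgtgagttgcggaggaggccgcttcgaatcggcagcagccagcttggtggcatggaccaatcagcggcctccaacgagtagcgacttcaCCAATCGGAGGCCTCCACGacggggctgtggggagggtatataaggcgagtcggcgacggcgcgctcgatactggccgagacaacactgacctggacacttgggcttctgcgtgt
The element starts 65 bases before the start of the gene. It was found on either strand in 8 of 19 promoter windows of list members (42.1%), in 0.143% of the windows of tested genes and in 0.119% of all 32851 windows.

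Among targets of ATF4, 20 of 27 rose and 5 fell (median 0.50). Atf5, a stress-induced transcription factor, went from 215, 178 and 168 to 578, 557 and 552 CPM and Atf3, another, from 66.9, 58.9 and 54.4 to 154, 149 and 150.4 CPM. Both were higher in each shAD4-2 library than in any control. Fgf21, a stress hormone made by few tissues, rose from 0.194 ± 0.130 to 4.28 ± 0.450 CPM and the cytokine Gdf15 from 0.141 ± 0.0424 to 1.84 ± 0.262 CPM. The serine and glycine enzymes rose together, Phgdh 1.56-fold, Psph 1.99-fold and Shmt2 1.74-fold. The members that fell were Pycr1 (-1.22) and Aldh18a1 (-0.38) of proline synthesis, Asns of asparagine synthesis (-0.22), the leucine transporter Slc7a5 (-0.35) and Ddit3, the factor CHOP, from 834 ± 85.9 to 447 ± 6.79 CPM. Atf4 itself (0.07) was not called. Compared with the first hairpin, 15 members were lower and 2 higher with shAD4-2. The 2 became 1 when shAD4-1 replicate 2 or 3 or shAD4-2 replicate 1 or 3 was left out. Slc7a11, the cystine importer, stood at 147 ± 15.5 CPM in control libraries, 413 ± 15.8 with shAD4-1 and 196 ± 13.9 with shAD4-2. The core TGATGNAA of the C/EBP-ATF element lay in 10 of 29 promoter windows of this list (34.5%), in 2.30% of the windows of tested genes and in 3.97% of all windows.

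Cytosolic and mitochondrial heat shock proteins rose for 12 of 18 members and fell for 2 (median 0.49). Hsph1, which reloads HSP70 with ATP, went from 80.1, 66.1 and 64.6 to 171, 179 and 175 CPM. Its groups did not overlap. The mitochondrial chaperones rose, Hspa9 1.80-fold, Hspe1 1.74-fold and Hspd1 1.58-fold. Hsp90aa1 (0.10), Dnajb1 (0.11) and Hsf1 (0.12), the first 2 known as targets of the heat shock factor that Hsf1 encodes, were not called. Of the 8 subunits of the chaperonin CCT, which folds actin and tubulin, 7 rose, with Cct2 at 356 ± 14.7 and 642 ± 9.18 CPM. NRF2 targets, the antioxidant genes, went both ways, 14 of 26 up and 8 down. Thioredoxin reductase Txnrd1 rose 1.59-fold and mitochondrial superoxide dismutase Sod2 1.71-fold, whereas Ftl1, the ferritin light chain, fell from 7059 ± 751 to 4889 ± 99.2 CPM and Gsta4, a glutathione transferase, from 13.8 ± 0.793 to 0.338 ± 0.259 CPM. This list differed between the hairpins more than most: 19 of 26 members were lower with shAD4-2 than with shAD4-1, against 14.0% of all genes, and 1 was higher. Hmox1, heme oxygenase, stood at 148, 156 and 159 CPM in control libraries, 351, 360.3 and 332 with shAD4-1 and 209, 198 and 209 with shAD4-2, which left the second hairpin between the other groups.

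**Figure D2:**
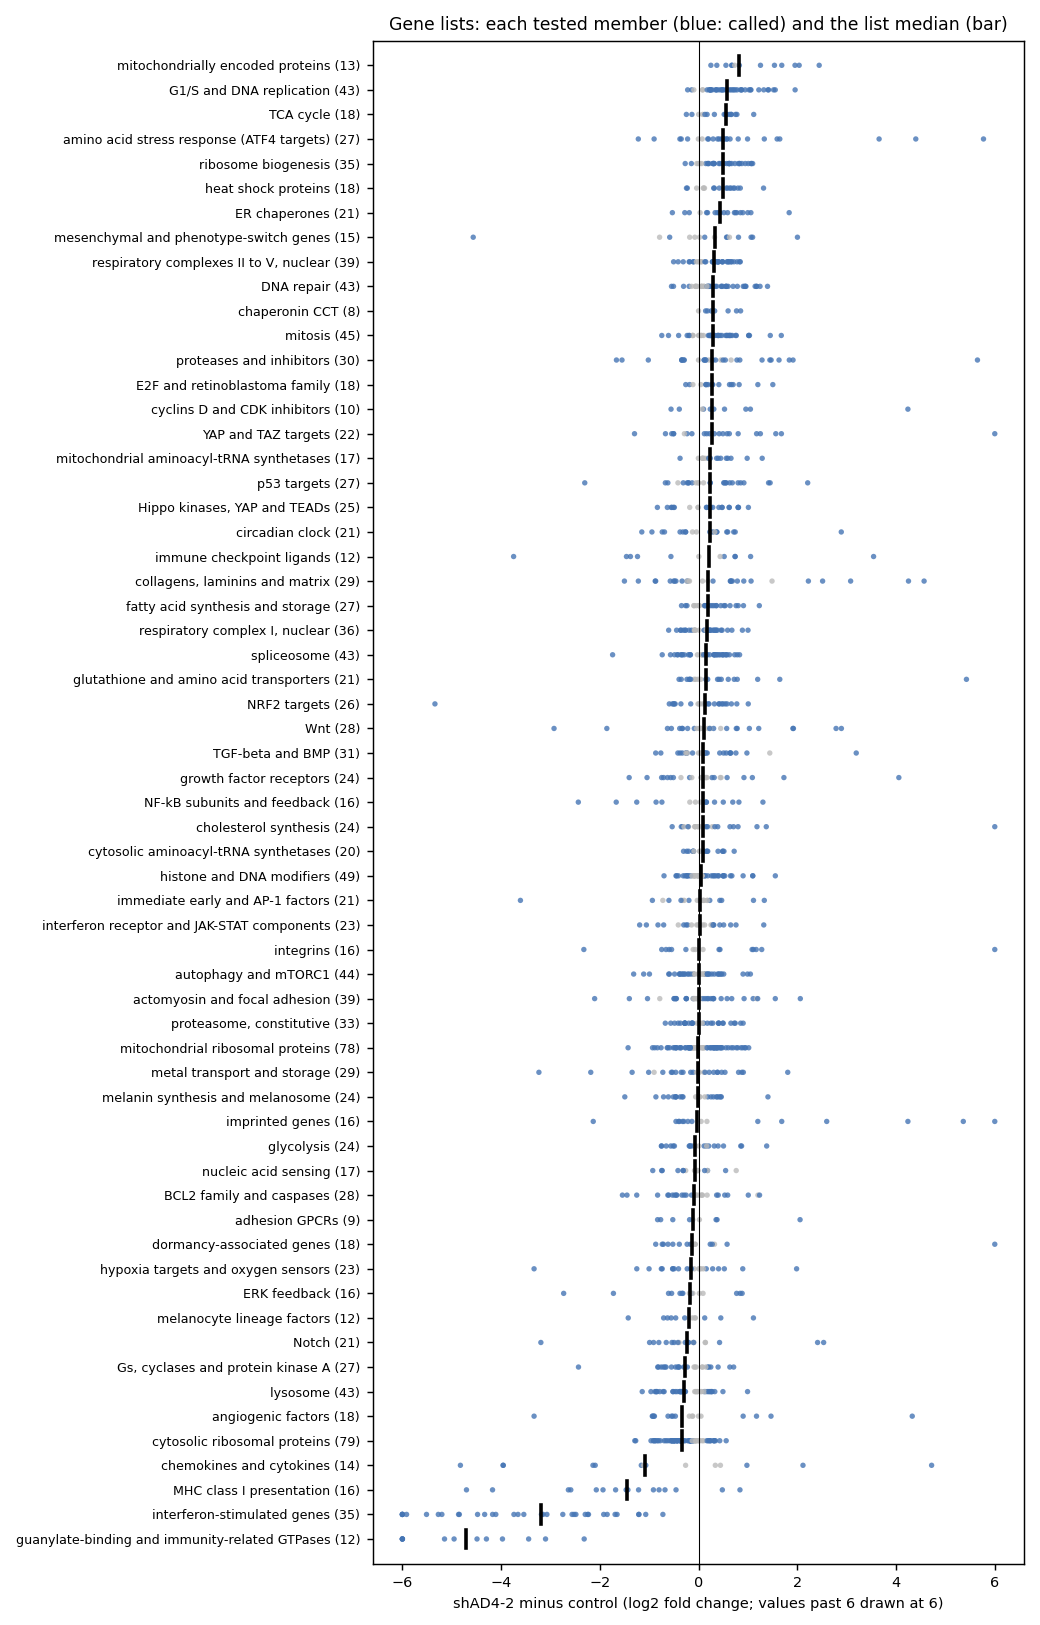
Log2 fold change of shAD4-2 over control (horizontal axis) for each tested member of each gene list (points; blue where called, grey where not), with the list's median as a black bar and the number of tested members in brackets. The interferon, guanylate-binding and MHC class I lists have medians well to the left of 0, and replication, ER chaperone and ATF4 lists have medians to the right.

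The cell cycle is driven by cyclins and their kinases, which release E2F factors from the retinoblastoma family so that genes of DNA replication are made, and a second wave of genes, driven by the MuvB complex with B-MYB and FOXM1, then builds the mitotic spindle. In proliferating tumour lines both waves are on.

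Of 43 genes of the G1/S transition and of DNA replication 38 rose and 2 fell (median 0.57). Cdc6, which loads the replicative helicase onto origins, stood at 7.97, 8.35 and 7.69 CPM in control and 29.3, 30.95 and 33.00 CPM in shAD4-2 libraries (log2 fold change 1.96, SE 0.08, adjusted p = 2.97e-13). Each shAD4-2 library lay more than 3-fold above each control library. The helicase subunits Mcm2 (0.87), Mcm3 (1.06), Mcm4 (1.55), Mcm5 (0.24), Mcm6 (0.36) and Mcm7 (0.69) all rose, on the log2 scale, as did their partner Cdc45 (1.32). Rrm2, the subunit of ribonucleotide reductase that sets the supply of DNA precursors, went from 102, 89.6 and 89.6 to 249, 245 and 250.4 CPM, and its groups did not overlap. Rfc5 and Rfc2, subunits of the clamp loader, fell by under 1.5-fold.

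The promoters of Cdc6 and Mcm3 are shown with matches to the E2F site, TTTCCCGC or TTTGGCGC on either strand, in capitals. They lie at chr11:98907901-98908200 (plus strand) and chr1:20820263-20820562 (minus strand) of GRCm38.p6, from RefSeq.
Cdc6: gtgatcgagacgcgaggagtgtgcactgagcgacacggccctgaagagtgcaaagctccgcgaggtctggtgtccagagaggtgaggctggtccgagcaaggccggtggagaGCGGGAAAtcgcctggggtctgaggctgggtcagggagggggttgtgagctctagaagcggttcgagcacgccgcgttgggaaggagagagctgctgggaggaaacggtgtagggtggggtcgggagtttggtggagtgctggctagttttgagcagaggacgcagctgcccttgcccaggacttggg
Mcm3: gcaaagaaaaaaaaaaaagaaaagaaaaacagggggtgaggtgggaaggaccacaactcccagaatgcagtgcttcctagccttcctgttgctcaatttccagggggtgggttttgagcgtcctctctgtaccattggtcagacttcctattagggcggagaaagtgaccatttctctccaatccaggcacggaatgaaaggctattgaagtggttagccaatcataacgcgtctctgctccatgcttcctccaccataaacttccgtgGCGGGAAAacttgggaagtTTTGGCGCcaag
In Cdc6 the match starts 138 bases before the gene's start and in Mcm3 2 matches start 19 and 38 bases after it. Of 39 promoter windows of the list 12 (30.8%) held a match, against 2.73% of the windows of tested genes and 1.56% of all windows.

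Mitotic genes rose for 30 of 45 members and fell for 6 (median 0.29). Ndc80, which ties kinetochores to microtubules, went from 20.5, 17.2 and 14.3 to 54.1, 54.4 and 56.98 CPM and Dlgap5, a spindle protein, from 20.04, 18.4 and 18.7 to 50.6, 51.2 and 54.5 CPM. Neither gene overlapped between groups. Ccnb1, the mitotic cyclin B1, rose 2.02-fold and Tpx2, which activates the kinase Aurora A, 1.70-fold. Against these, the proliferation marker Mki67 fell from 251 ± 9.49 to 189.7 ± 2.19 CPM, and Cdc25b, a phosphatase that starts mitosis, from 47.5 ± 2.37 to 28.3 ± 1.81 CPM. Plk1 (0.07) and Foxm1 (0.05) were not called against control. Of 18 E2F and retinoblastoma family genes 13 rose, E2f2 from 7.69 ± 0.737 to 21.8 ± 0.277 CPM and E2f7, an E2F repressor, from 4.45 ± 0.259 to 10.2 ± 0.551 CPM.

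Mitosis and DNA replication were the lists with the largest share of members called between the hairpins among the lists with at least 10 tested genes. Of the 45 mitotic genes 42 were called higher with shAD4-2 than with shAD4-1 and none lower, and of the 43 replication genes 34 were higher and none lower, where 13.4% of all genes were called higher. Median differences were 0.41 and 0.33 on the log2 scale. Across the alternatives run, 39 to 42 mitotic and 29 to 38 replication genes were called higher and 0 lower. Each comparison with control had its own values: the mitotic list had a median of 0.29 with shAD4-2, and -0.05 with shAD4-1, where 14 members rose and 21 fell. Plk1, the kinase that drives mitotic entry, stood at 33.6, 33.1 and 28.4 CPM in control libraries, 21.7, 19.7 and 20.5 with shAD4-1 and 33.4, 35.2 and 30.8 with shAD4-2 (difference between hairpins 0.68, SE 0.07, adjusted p = 4.16e-06), so the first hairpin lay low and the second near control. Aurka, Aurora kinase A, showed 38.4 ± 2.41, 30.05 ± 1.45 and 45.9 ± 0.764 CPM in the same order of groups, and Rrm2 93.7 ± 7.09, 152 ± 1.94 and 248 ± 2.67 CPM. For Rrm2 the second hairpin was thus the highest of the 3 groups.

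**Figure D3:**
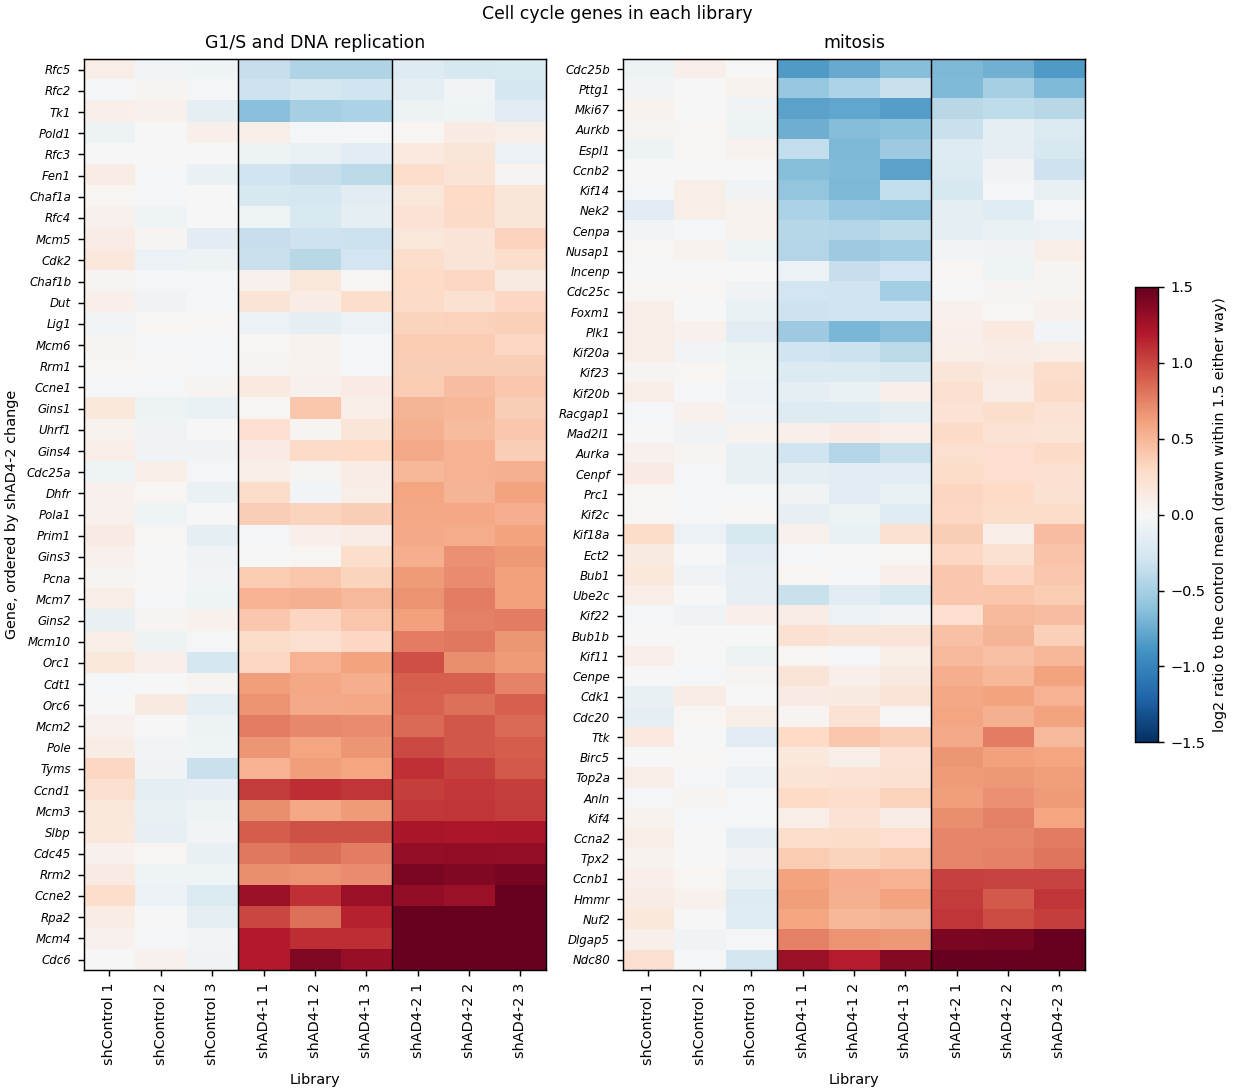
Log2 ratio of each library's CPM to the control mean (colour, drawn within 1.5 either way) for the tested genes of the replication list (left) and the mitosis list (right), ordered by their change with shAD4-2. The shAD4-2 columns are redder than the shAD4-1 columns in nearly every row, also in mitosis genes that are blue with shAD4-1, such as Plk1 and Aurka.

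DNA repair genes rose for 28 of 43 members and fell for 4 (median 0.29). Brca1, of homologous recombination, went from 34.7, 32.4 and 32.2 to 78.3, 77.1 and 79.9 CPM. Its groups did not overlap. Chek1, the kinase that guards replication forks, rose 2.63-fold, its adaptor Clspn 2.26-fold and Fancd2, of crosslink repair, 1.93-fold. Brca2 fell 1.46-fold and Atm 1.14-fold. In the difference between hairpins 18 members were higher and 3 lower with shAD4-2. Among p53 targets 14 of 27 rose and 8 fell, and 11 were higher and 4 lower than with shAD4-1. Mdm2, the ubiquitin ligase that p53 induces against itself, stood at 154, 149.6 and 157 CPM in control libraries, 307, 317 and 314 with shAD4-1 and 411, 409 and 409.8 with shAD4-2, above each of the other groups without overlap (difference between hairpins 0.39, SE 0.03). Tnfrsf10b, a death receptor, rose 2.73-fold and Zmat3 1.89-fold, while Bbc3, the apoptosis inducer PUMA, fell 1.54-fold. Cdkn1a, the cell cycle inhibitor p21, rose from 546 ± 26.9 to 643 ± 12.95 CPM and Cdkn1b, the inhibitor p27, fell from 93.8 ± 3.61 to 71.6 ± 6.46 CPM. Cdkn1c, the imprinted inhibitor p57, rose from 0.241 ± 0.192 to 4.57 ± 0.495 CPM. Cyclins D1 and D3 rose, Ccnd1 2.07-fold and Ccnd3 1.94-fold.

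Genes that build ribosomes and those of the ribosome itself moved in opposite directions. Nucleolar factors rose for 29 of 35 members and fell for 2 (median 0.49), whereas cytosolic ribosomal proteins fell for 56 of 79 and rose for 11 (median -0.34). Ncl, the nucleolar protein nucleolin, went from 1193, 1137 and 1133 to 2345, 2328 and 2283 CPM and Nop56, a core protein of box C/D particles, from 221, 198 and 196 to 438, 445 and 432 CPM. The shAD4-2 libraries lay above the controls in both. Rps14 went from 1014, 1243 and 1278 to 507, 481 and 456 CPM and Rps6, the small subunit protein phosphorylated downstream of mTORC1, from 1008, 1035 and 1029.9 to 543, 539 and 554 CPM. Here the controls were higher in every library. Rpl10 (0.56) and Rps3a1 (0.43) were the largest of the 11 rises among ribosomal proteins. Many ribosomal protein genes have processed pseudogenes whose reads may be divided with them. Spliceosome genes rose for 24 of 43 and fell for 14, with Hnrnpa2b1 up 1.78-fold and U2af1, which recognises the 3′ splice site, down 3.34-fold. In this list 16 genes were higher and 2 lower with shAD4-2 than with shAD4-1, Srsf3 at 149.8 ± 7.56, 86.5 ± 4.78 and 163 ± 13.7 CPM in control, shAD4-1 and shAD4-2 cells.

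Mitochondria draw their proteins from both genomes. Of the 13 genes encoded in mitochondrial DNA 12 rose and none fell (median 0.83), unevenly: ND1, a complex I subunit, went from 1089, 675 and 592 to 2962, 3039 and 3669 CPM, while COX1 of complex IV went from 14949, 16530.0 and 15879.6 to 18267, 18887 and 19137 CPM. Both sets of libraries were apart, by 4.11-fold for ND1 and 1.19-fold for COX1. ATP8 was the member not called. The list median also varied between libraries, at 0.64, 0.63 and 1.32 in shAD4-2 replicates 1, 2 and 3 against the control mean. Without control replicate 1 the median of the list was 1.13. Nuclear genes of complex I rose for 19 of 36 members and fell for 9 (median 0.17), and those of complexes II to V for 27 of 39, with 7 falling (median 0.32). Ndufv2 of complex I went from 106 ± 2.65 to 212 ± 11.3 CPM, Cox5b of complex IV rose 1.78-fold and Atp5b, the catalytic subunit of ATP synthase, 1.58-fold, while Cox5a fell 1.42-fold and Ndufv3 1.52-fold. Mitochondrial ribosomal proteins were split, 31 of 78 up and 28 down.

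Of 18 genes of the TCA cycle 14 rose and 2 fell (median 0.55). Fh1, fumarase, stood at 79.9, 88.8 and 89.1 CPM in control and 187, 189.7 and 182 CPM in shAD4-2 libraries. The groups did not overlap. Glycolysis was split, with 9 of 24 members up and 10 down. Ldha, which makes lactate, fell from 1332 ± 70.3 to 794 ± 12.2 CPM, Pkm, pyruvate kinase, 1.48-fold and Pdk1, which holds pyruvate back from mitochondria, 1.69-fold, while Eno2, an enolase, rose 2.60-fold and Tpi1, triose phosphate isomerase, 1.81-fold. Against the first hairpin 12 glycolysis genes were lower with shAD4-2 and none was higher, and across the alternatives, left-out libraries included, 8 to 18 were lower, the 18 without control replicate 1 and with no filter on low counts. Targets and sensors of hypoxia had 6 of 23 members up and 12 down, and 10 were lower than with shAD4-1. Bnip3, of mitochondrial clearance, fell from 267 ± 7.18 to 133 ± 12.1 CPM and Adm, the vessel-dilating peptide adrenomedullin, from 14.2 ± 1.24 to 1.41 ± 0.423 CPM. Hif1a (0.41) and Epas1 (1.99), the oxygen-regulated factors, rose on the log2 scale. Lipid synthesis genes rose for 17 of 27, with the fatty acid synthase Fasn up 1.69-fold and Plin2, the coat protein of lipid droplets, 2.35-fold. In cholesterol synthesis 10 of 24 rose and 4 fell, with squalene epoxidase Sqle up 1.74-fold and the feedback regulator Insig1 2.27-fold.

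Of 43 lysosomal genes 24 fell and 11 rose (median -0.29). Hexa, a subunit of hexosaminidase, went from 384, 405 and 407 to 182, 182 and 178 CPM and Npc1, which exports cholesterol from lysosomes, from 244, 271 and 273 to 142, 149.6 and 135 CPM. The groups were apart in both genes. Autophagy and mTORC1 genes had 16 of 44 up and 17 down, among them Sqstm1, the autophagy receptor p62, which went from 1427, 1519.7 and 1573 to 3120.4, 3160.4 and 3077 CPM, and Ulk2, a kinase that starts autophagy, from 73.4 ± 1.24 to 29.5 ± 0.966 CPM. Deptor, an inhibitor of mTOR, fell 2.16-fold, and Tsc2, a brake on mTORC1, rose 1.99-fold. Proteasome subunits were split, 14 of 33 up and 15 down.

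Transporters of amino acids and metals held large single changes. Slc38a3, a glutamine transporter, went from 0.831, 1.42 and 0.911 to 43.96, 48.1 and 44.6 CPM, and Slc38a2, which takes up neutral amino acids under starvation, from 328, 286 and 275 to 669, 673 and 696 CPM. Both lay higher in every shAD4-2 library than in any control. In all 11 of 21 amino acid transporters rose and 6 fell. Slc39a10, a zinc importer, went from 154, 193 and 196 to 39.5, 40.4 and 39.7 CPM and Mt2, the metal-binding protein metallothionein 2, from 53.4, 34.9 and 38.7 to 156, 139 and 148 CPM. The groups were apart for both, the importer lower and the metallothionein higher with shAD4-2. Of 29 metal genes 11 rose and 12 fell, the zinc exporter Slc30a1 rising 1.75-fold.

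Clock genes were split, 10 of 21 up and 8 down. Clock, a subunit of the activator that drives the daily rhythm, rose 1.67-fold and Nr1d2, a repressor of the loop, 1.64-fold, while Per3 fell 2.22-fold, from 13.7 ± 4.28 to 6.21 ± 0.842 CPM. Per2, a repressor of the same loop, rose from 0.592 ± 0.212 to 4.39 ± 0.982 CPM. Genes that the ERK pathway induces to restrain itself had 3 of 16 up and 8 down. Dusp6, a phosphatase of ERK, rose 1.79-fold, whereas Spry1, an inhibitor of receptor signalling, fell 1.52-fold and Etv1, a transcription factor downstream of ERK, 3.30-fold.

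**Figure D4:**
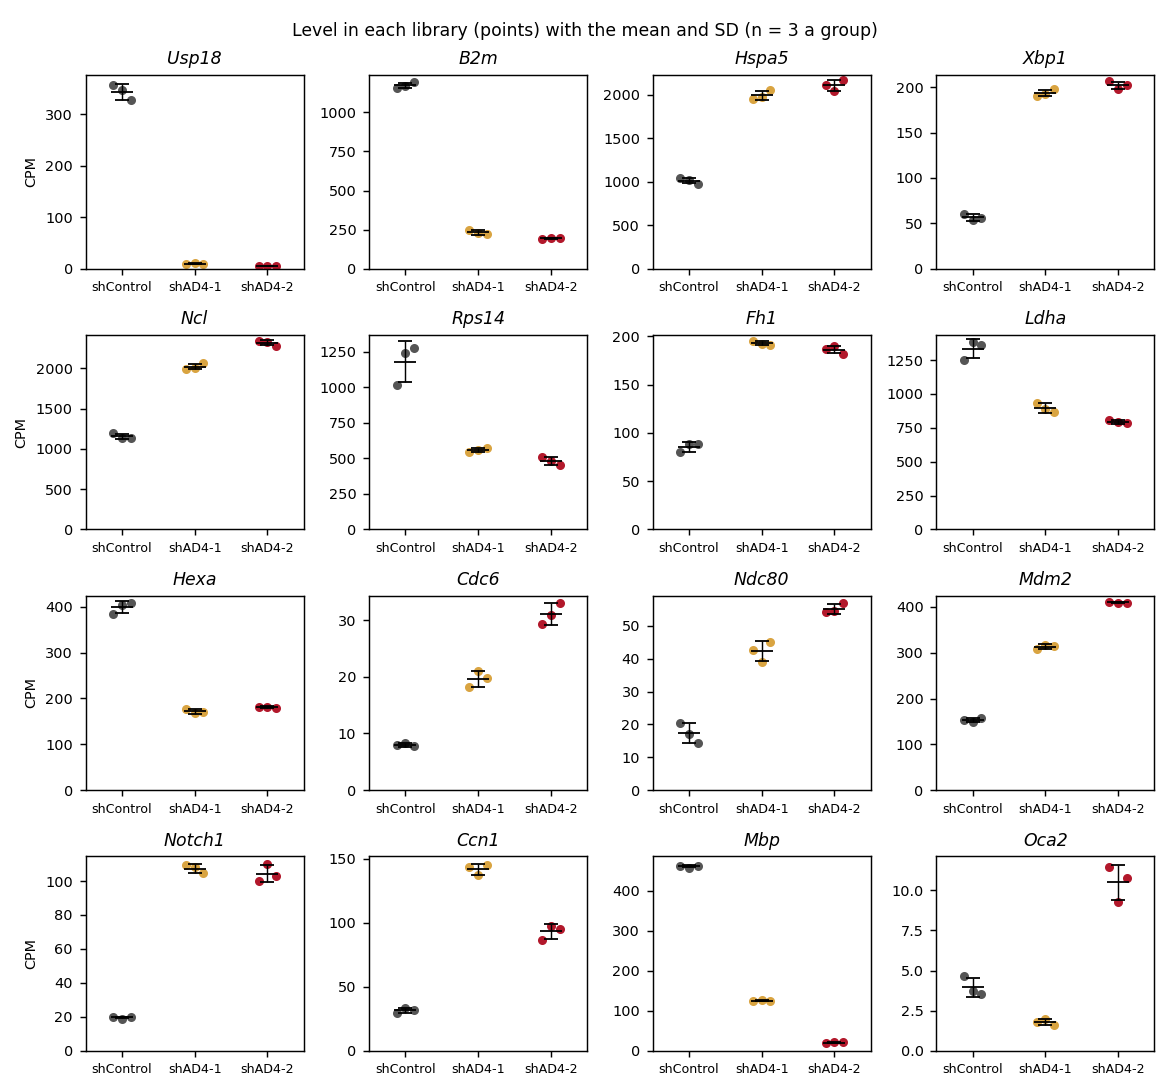
Level (CPM, vertical axis from 0) of 16 genes described in the text in each library (points), with the mean and SD of the 3 libraries of each group as black bars. For Usp18, B2m and Mbp both hairpins lie below control, Cdc6, Ndc80 and Mdm2 are highest with shAD4-2, and Oca2 is lower than control with shAD4-1 and higher with shAD4-2.

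The title of the series names Gαs and YAP1. Gαs, encoded by Gnas, carries signals from receptors to adenylyl cyclases and protein kinase A, and YAP1 with its relative TAZ drives TEAD-dependent genes unless the Hippo kinases LATS1 and LATS2 hold it in the cytoplasm. Transcript levels do not report the activity of these proteins.

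Yap1 itself stood at 171, 155 and 158 CPM in control and 225, 228 and 220.5 CPM in shAD4-2 libraries (log2 fold change 0.48, SE 0.04, adjusted p = 5.82e-09). The groups did not overlap, and the rise was 1.39-fold. Wwtr1, which encodes TAZ, had a log2 fold change of 0.16 that was called by edgeR and not by limma on FPKM (0.099, adjusted p = 0.123). Of 22 YAP and TAZ targets 14 rose and 7 fell (median 0.27), 5 and 1 of them at least 2-fold. Ccn1, a matrix-associated growth factor and common readout of YAP, went from 29.4, 33.2 and 31.8 to 86.8, 97.5 and 95.2 CPM. Each shAD4-2 library lay above each control. Its relative Ccn2 went from 1.76 ± 0.552 to 5.61 ± 0.832 CPM, and Ajuba, a scaffold that binds LATS, rose 2.38-fold. Ankrd1, another common readout, had 0 reads in control and 40 in shAD4-2 libraries, which is at least 14.3-fold higher with the control set at 3 reads over the group, and the 95% interval of the ratio, for counting error only, starts at 11.1-fold. Rbms3 (-1.30) and Myof (-0.67) fell on the log2 scale. Between the hairpins 3 of the 22 targets were higher (5 without control replicate 1) and 5 lower with shAD4-2. Over all genes 13.4% were called higher and 14.0% lower. Ccn1 and Ccn2 went different ways: Ccn1 was lower (-0.61, SE 0.05) and Ccn2 higher (0.57, SE 0.18) than with shAD4-1. Among Hippo kinases and their partners 16 of 25 rose and 6 fell, with Lats2 up 1.74-fold, the cofactor Vgll3 up 2.01-fold and Frmd6 down 1.78-fold.

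Genes of Gs signalling leaned downward, with 15 of 27 falling and 6 rising (median -0.28). Gnas went from 1387, 1518 and 1561 to 1130.0, 1128 and 1116 CPM (log2 fold change -0.40, SE 0.04). Its groups did not overlap. The catalytic subunit Prkaca fell 1.31-fold, the G protein subunits Gnb1 1.38-fold and Gng12 1.64-fold, and the regulatory subunit Prkar2b 1.77-fold, while the cyclase Adcy3 rose 1.55-fold and the CREB coactivator Crtc1 1.64-fold. Among adhesion receptors of the same family as the targeted gene, 3 of 9 rose and 4 fell, Adgra3 from 146 ± 6.98 to 85.7 ± 3.65 CPM and Adgrl2 from 175 ± 7.16 to 224 ± 3.63 CPM.

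Angiogenic factors are ligands that act on the cells of blood vessels. Of 18 tested 9 fell and 4 rose (median -0.33). Vegfa, the main vessel growth factor, stood at 243, 274 and 272 CPM in control and 276, 269.7 and 270.1 CPM in shAD4-2 libraries and was not called (log2 fold change 0.05, SE 0.04, adjusted p = 0.334). The difference was within the spread of the libraries. Vegfc, which acts on lymphatic vessels, fell 1.90-fold, Angptl2, an angiopoietin-like protein, 1.87-fold, placental growth factor Pgf 1.92-fold and Thbs1, the vessel inhibitor thrombospondin 1, from 14.7 ± 2.80 to 9.60 ± 1.82 CPM. Serpinf1, another vessel inhibitor, rose from 39.2, 34.3 and 35.8 to 70.8, 66.5 and 66.97 CPM without overlap and Pdgfb, which recruits pericytes, from 0.146 ± 0.0874 to 2.94 ± 0.627 CPM. Against the first hairpin 6 of the 18 were lower and 2 higher with shAD4-2, where 14.0% and 13.4% of all genes were. The 2 higher became 1 without shAD4-1 replicate 3, shAD4-2 replicate 1 or shAD4-2 replicate 2. Vegfa was among the lower (-0.29, SE 0.04).

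Genes tied to tumour dormancy in the literature had 4 of 18 members up and 8 down. Of these 1 rise and 0 falls were at least 2-fold, and log2 fold changes in the list ran from -0.87 to 6.87. Nr2f1, an orphan nuclear receptor used as a dormancy marker, had a log2 fold change of -0.13 that did not pass the test, at 7.67 ± 0.258 and 7.04 ± 0.675 CPM. Mapk14, the kinase p38, fell 1.43-fold, Dyrk1b, a kinase of quiescent cells, 1.64-fold and Tgfbr3, a co-receptor of TGF-beta, 1.83-fold, while Axl, a receptor kinase, rose 1.49-fold. In the BCL2 and caspase list 14 of 28 fell and 6 rose. Casp4, the sensor of intracellular bacterial lipid, fell from 30.5 ± 1.85 to 10.4 ± 0.265 CPM and Birc2, an inhibitor of apoptosis, 1.52-fold, while Ripk1, a kinase of death receptor signalling, rose from 25.8 ± 4.64 to 60.7 ± 1.89 CPM and Bcl2 1.44-fold.

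Surface and matrix genes were among the largest rises. Itga3, the integrin alpha-3 subunit that binds laminin, went from 0.154, 0.283 and 0.107 to 21.6, 24.9 and 24.1 CPM and Itga5, the fibronectin-binding subunit, from 40.5, 47.8 and 45.3 to 100.2, 101 and 99.5 CPM. The groups were apart in both. Of 16 integrins 7 rose and 6 fell, with Itga4, a subunit that pairs with Itgb1, going from 149 ± 17.9 to 98.7 ± 4.08 CPM. Fn1, fibronectin, rose 2.09-fold, from 239 ± 30.4 to 499 ± 20.8 CPM, and Spp1, osteopontin, from 2.91 ± 0.403 to 13.6 ± 1.27 CPM, while Agrn, the basement membrane proteoglycan agrin, fell from 524 ± 44.5 to 185 ± 9.71 CPM. The matrix list as a whole had 13 of 29 up and 10 down. Htra3, a secreted serine protease, went from 0.766 ± 0.305 to 39.3 ± 2.35 CPM and Timp3, a protease inhibitor, rose 1.71-fold. Rhoa (2.05-fold) and Rhob (2.64-fold), GTPases of the actin skeleton, fell, while Enah, an actin polymerase, rose 2.29-fold and Zyx, zyxin of focal adhesions, 1.89-fold.

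Pathways of development were mixed, each with a few large changes. Notch1 went from 20.04, 18.97 and 19.8 to 99.8, 109.9 and 103 CPM, a 5.32-fold rise, with no overlap, whereas 13 of 21 Notch pathway genes fell, among them the coactivators Maml2 (-0.42) and Maml3 (-0.54) and the receptor Notch3 (-0.66). Dkk3, a secreted protein of the Dickkopf family, fell 7.61-fold and Fzd6, a Wnt receptor, rose 2.33-fold among 28 Wnt genes, 11 of which rose and 9 fell. Epha2, an ephrin receptor, went from 0.779 ± 0.199 to 12.9 ± 0.809 CPM and Fgfr3 rose 3.31-fold, while Met, the receptor of hepatocyte growth factor, fell 1.63-fold. Tgfb1 rose 1.97-fold in a TGF-beta list of 14 rises and 9 falls. Egr1, an immediate early gene, fell from 8.03 ± 0.903 to 0.660 ± 0.210 CPM, while Myc rose from 20.7 ± 2.47 to 44.7 ± 2.06 CPM. Imprinted genes, expressed from a single parental copy, included the rises of Phlda2 (0.700 ± 0.174 to 29.1 ± 2.43 CPM), Slc22a18 (6.29 ± 0.404 to 38.1 ± 1.61 CPM) and Plagl1 (265 ± 28.6 to 851 ± 134 CPM), with 6 of 16 higher and 8 lower in all.

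Pigment genes are made in melanocytes under MITF, which melanocortin receptor signalling through Gs and protein kinase A can raise. In bulk RNA, fewer cells making a transcript and less of it per cell cannot be told apart. Mitf was not called, at 172, 127 and 119 CPM in control and 131, 122 and 129.8 CPM in shAD4-2 libraries (log2 fold change -0.12, SE 0.09). Control replicate 1 lay above the other controls for this gene, and without it the log2 fold change was 0.065. Of 24 genes of melanin and the melanosome 9 rose and 11 fell. Mc1r, the melanocortin receptor, went from 142, 141 and 136 to 56.03, 50.9 and 49.2 CPM and Trpm1, an ion channel gene under MITF, from 73.2, 62.6 and 66.2 to 24.5, 23.6 and 23.6 CPM. Both fell in every library. Tyr, tyrosinase, fell 1.53-fold and Tyrp1 1.26-fold, whereas Pmel, the fibril protein of melanosomes, rose from 1033 ± 126 to 1421 ± 95.8 CPM and Pax3, a factor upstream of Mitf, 2.16-fold. Dct (0.02) and Sox10 (-0.07) were not called. Oca2, a melanosomal chloride channel, stood at 4.65, 3.74 and 3.54 CPM in control libraries, 1.77, 1.96 and 1.60 with shAD4-1 and 11.4, 9.25 and 10.8 with shAD4-2. It was lowest with the first hairpin and highest with the second, without overlap between any 2 groups, a difference between hairpins of 2.56 (SE 0.16, adjusted p = 4.94e-09).

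Genes with provisional symbols, such as Gm or Rik names, and genes with overlapping groups were not ranked here. Of the others with a mean above 50 CPM in either group, Tns1, tensin 1, which links integrins to actin, had the largest rise. It went from 8.46, 8.95 and 9.86 to 270.4, 282 and 273 CPM (30.2-fold, adjusted p = 1.73e-21). No library came near the other group. Next came Ccn4, a Wnt-induced matrix protein (2.49), and Notch1, then Pspc1, a paraspeckle protein (2.41), Prdm11 (2.38), the matrix protein Sned1 (2.35), the xylosyltransferase Gxylt2 (2.20), and Enpp2, which makes lysophosphatidic acid (2.13), as log2 fold changes. Mcam, the melanoma cell adhesion molecule CD146, went from 175 ± 15.03 to 734 ± 16.5 CPM and Nes, the intermediate filament nestin, from 71.5 ± 12.8 to 286 ± 8.19 CPM. Tg, the thyroglobulin gene, rose from 16.6 ± 1.05 to 65.6 ± 2.45 CPM. The 12 largest falls under the same rule were Mndal, Ifi203, Ifi44, Trim30d, Apol9a, Trim30a, Apol9b, Oasl2, Ddx60, Trim12c, Usp18 and Oas1g, at log2 fold changes between -8.92 and -5.51. Most of these are known as interferon-induced, and several belong to families whose members share reads. Between 5 and 50 CPM the largest rises were Hspb7, Itga3, Osmr, Prkg2, Ppp1r3b and Fam13c. Osmr, the oncostatin M receptor, went from 0.123, 0.198 and 0.161 to 12.6, 9.86 and 10.8 CPM, and the groups were far apart. Hspb7, a small heat shock protein, had 8.39 ± 1.28 CPM with shAD4-2 and was at 0 in control replicates 2 and 3, so its fold rests on few reads.

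Some genes differed from control and from the first hairpin in the same direction, 1256 higher and 1207 lower with shAD4-2. Mbp, myelin basic protein, stood at 464, 459 and 462 CPM in control libraries, 126, 126 and 125 with shAD4-1 and 18.4, 20.7 and 21.3 with shAD4-2. The 3 groups formed separate steps, and the second hairpin lay 22.98-fold below control. Fndc3c1, a fibronectin type III protein, formed the same steps at 65.5 ± 1.84, 15.1 ± 0.368 and 1.51 ± 0.601 CPM. Hoxb7, a positional homeobox gene, stood at 7.33 ± 1.49, 0.619 ± 0.204 and 0.122 ± 0.0222 CPM, Ccdc80, a matrix protein, at 15.04 ± 0.601, 2.17 ± 0.135 and 0.562 ± 0.180 CPM, and Mcoln3, a lysosomal calcium channel, at 98.5 ± 12.2, 28.03 ± 3.51 and 9.85 ± 0.526 CPM. In the other direction Mgll, which breaks down monoacylglycerols, showed 6.99, 6.00 and 5.33 CPM in control libraries, 4.58, 4.79 and 3.80 with shAD4-1 and 20.8, 20.9 and 17.1 with shAD4-2. It was called lower than control with the first hairpin and higher with the second. Grb14, an adaptor that inhibits the insulin receptor, went from 13.3 ± 0.792 in control to 13.1 ± 0.178 and 28.3 ± 1.51 CPM, the resolvase Gen1 from 11.9 ± 3.24 to 15.2 ± 0.861 and 28.6 ± 0.451 CPM, Ptk7, a Wnt co-receptor, from 0.864 ± 0.177 to 8.56 ± 0.439 and 15.8 ± 0.632 CPM, and Phf19, a Polycomb-associated protein, from 1.37 ± 0.150 to 6.48 ± 0.633 and 11.1 ± 0.901 CPM. Opposite calls against control were rare: 44 genes rose with shAD4-2 and fell with shAD4-1, and 47 did the reverse.

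**Figure D5:**
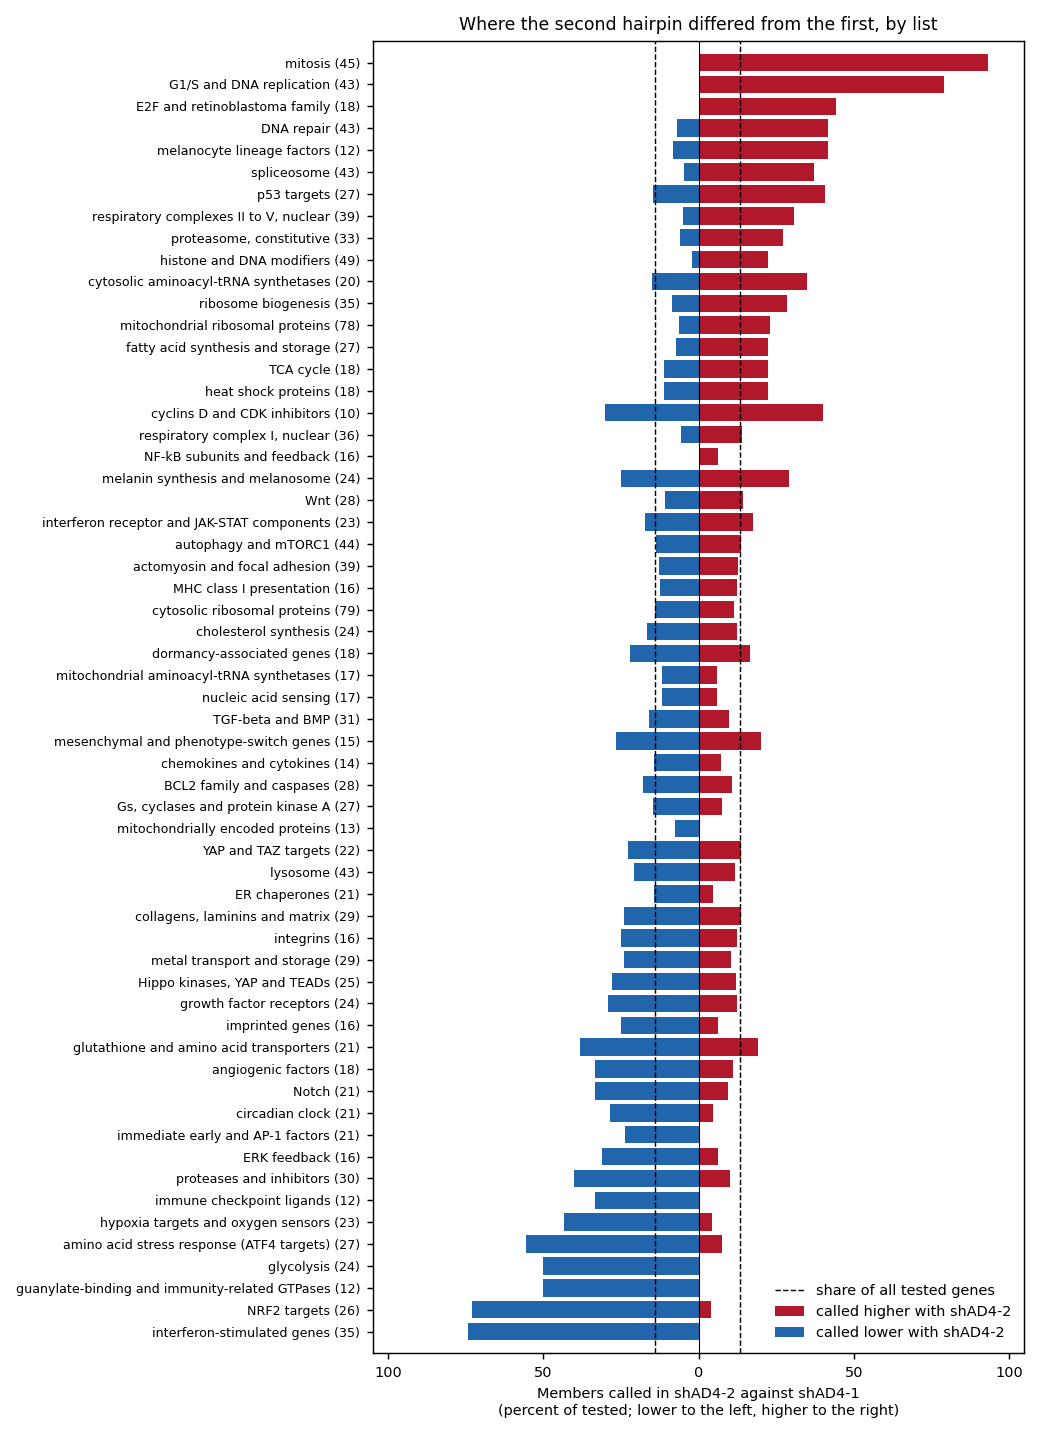
Share of tested members (horizontal axis, percent) of each list with at least 10 tested genes that were called higher (red, to the right) or lower (blue, to the left) with shAD4-2 than with shAD4-1; dashed lines mark the shares over all tested genes, 13.4% and 14.0%. Mitosis and replication genes stand at the top, and interferon-stimulated genes and NRF2 targets at the bottom.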

How the data were processed

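The library kit was VAHTS Universal V6, per the labels' protocols, and the submitters' processing notes name fastp, HISAT2, HTSeq and the build GRCm39, with no versions. The authors deposited read counts and FPKM per gene, each in a table of its own; counts over FPKM imply 1 whole-number length for each gene, the same in every library. The strand setting of the counting is not given in the sources used here. Overlapping and antisense genes are therefore uncertain. Columns were matched to samples by hairpin and replicate number. Counts of all 9 libraries were fitted by group in edgeR 4.0.16 (R 4.3.3; TMM scaling, filterByExpr, quasi-likelihood test), and Benjamini-Hochberg adjusted p-values under 0.05 were called. A group has 3 libraries. DESeq2 1.42.0, limma 3.58.1 on log2(FPKM + 1), other filters, scalings and left-out libraries were alternatives, and the edgeR fits were tested on simulated counts. Levels within a gene are CPM, and levels summed across genes are FPKM. Replicate numbers did not pair the libraries (correlation of deviations -0.049, -0.005 and -0.124). The 61 gene lists, the marker lists and the members were chosen with earlier results of these data known. Apart from a few genes of the series title, named genes had to be called against control and not to overlap. They also needed an official symbol (no Gm, Rik, LOC or clone names). From these came the 12 largest rises and falls above 50 CPM and the 6 largest between 5 and 50 CPM. The 10 largest each way in the same direction against control and shAD4-1 were added. So were the 6 each way with opposite calls in the hairpins and the largest smaller change. Each list gave its 4 smallest adjusted p-values each way. Other genes named as examples were chosen after their values were seen. Promoter windows are RefSeq's on GRCm38.p6, matched by gene ID, and no coordinate was converted. Some results are not reported here.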

Additional observations from a re-analysis of the deposited data

Results flagged for a closer look

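The effects of the hairpins against the same control went in opposite directions, each called, in 91 genes. Differences between the hairpins are given here for 6 genes each way, those with the largest change in the hairpin that changed them less. Genes chosen by opposite calls differ between the hairpins through that choice. The values therefore describe the size of the difference and are not a further test. Higher with shAD4-2 than with shAD4-1, on the log2 scale, were Oca2 by 2.56, the lipase gene Mgll by 2.16, Mlph, which carries melanosomes along actin, by 0.807, Chadl by 1.05, Nmral1 by 0.558 and Pmel by 0.719. Oca2, Mlph and Pmel belong to the pigment programme. Mlph stood at 102 ± 11.3 CPM in control libraries, 76.1 ± 1.41 with shAD4-1 and 133 ± 7.22 with shAD4-2, and Pmel at 1033 ± 126, 863 ± 19.6 and 1421 ± 95.8 CPM. The first hairpin was lowest and the second highest in both. Lower with shAD4-2 than with shAD4-1 were Pwwp3b (-1.03), Arhgap33 (-0.845), the bicarbonate transporter Slc4a4 (-0.856), Azgp1 (-0.771), the calcium channel of the endoplasmic reticulum Itpr3 (-0.653) and the nuclear receptor Rora (-0.554). Slc4a4 stood at 8.14 ± 0.574, 10.5 ± 0.773 and 5.81 ± 0.540 CPM and Rora at 27.4 ± 2.32, 33.5 ± 2.27 and 22.9 ± 1.51 CPM in the same order of groups. The fall of Azgp1 against control lost its call in 7 alternatives and the rise of Chadl in 5. Nmral1 lost its call without shAD4-2 replicate 2 and Itpr3 without shAD4-2 replicate 3. These genes and Mlph, Pmel, Pwwp3b, Arhgap33, Slc4a4 and Rora also lost it in the test against a 1.5-fold change. Oca2 and Mgll kept theirs in every alternative.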

How the results depend on the processing

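The count of genes called against control, 9522, lay between 8985 and 9704 with each library left out in turn, between 8261 and 9720 under the other settings that test for any change, and at 2607 when edgeR tested against a 1.5-fold change, a stricter question by construction. The count of at least 2-fold changes, 2033, lay between 1983 and 2148 with a library left out. It was 617 with limma on log2(FPKM + 1), 1024 with a pseudocount of 0.1 and 620 with no filter on low values, where the pseudocount shrinks the fold of low genes. The 3777 genes called between the hairpins became 2785 to 3258 with a hairpin library left out, 3580 to 4937 with a control library left out (chosen after seeing the data, and bearing on the spread only) and 3511 to 3940 otherwise. The difference in the mitochondrially encoded share, 1.269 percentage points, lay between 1.185 and 1.35 with a library left out. With the mitochondrially encoded genes left out, a setting chosen after seeing the data, 9516 and 3839 genes were called.

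With the replicate number as a block 9375 genes were called against control, 9333 of them also called without it, 2003 of them at least 2-fold, and 3511 between the hairpins. The numbers do not pair the libraries, so this fit describes a shared number.

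Alternative values were followed for 74 of the named genes, those named by size of change, by comparison with shAD4-1 or by the series title. Genes named only from a list, by adjusted p, were not followed singly. Most of the 74 were named for large changes without overlap, which seldom lose a call. Of 1321 alternative values of the 74 genes 1284 kept direction and call, 31 lost the call, 2 gained one and 4 changed sign. The sign changes were in genes that were not called: Vegfa at -0.004936 (limma, pseudocount 1, with or without the filter) and -0.00498 (pseudocount 0.1), and Mitf at 0.06519 without control replicate 1. Mitf was called, at -0.1174, with no filter on low counts and, at -0.2189, without control replicate 3. The cause was not tested. Of 61 lists 16 changed the sign of their median under some setting. The widest ranges among these were those of matrix genes (0.191 in the report's fit, -0.269 to 0.664) and imprinted genes (-0.0416, -0.115 to 1.21), and the mitochondrially encoded genes have a median of 0 once centred on their own chromosome, by construction. Other scalings moved the median of all genes by at most 0.032. A depth of at least 31.3 M reads limits only genes with a handful of reads, such as Gbp5, Iigp1, Ankrd1 and Hspb7.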

Other observations

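Among 2091 gene ontology terms of 15 to 200 tested genes in the annotation of the count table, the highest median log2 fold change with shAD4-2 was that of collagen trimer, with 16 of 25 members higher, 4 lower and a median of 0.69. Terms of ossification also stood high, regulation of bone mineralization with 13 of 20 members higher and a median of 0.49, as did potassium channel activity, with 11 of 25 higher and 3 lower (0.44). The terms were read for their order only and no test was run on them. Low terms other than those of interferon and antiviral defence included calcium channel regulator activity (11 of 17 lower, -0.66) and glutathione binding (10 of 15 lower, -0.51). Less low were lysosomal lumen (12 of 16 lower, -0.45) and semaphorin receptor binding (12 of 18 lower, -0.44), whose members guide axons and vessels.

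Changes were spread unevenly over the chromosomes, for 13630 genes placed by RefSeq's annotation. Chromosome 10 had a median log2 fold change of 0.284 over 709 genes, with 54.4% called higher and 16.4% lower. Chromosome 14 had a median of 0.163 (454 genes, 47.4% higher and 22.9% lower) and chromosome 17 of 0.138 (682 genes). The lowest median was that of chromosome 18, at -0.218 over 348 genes, with 16.7% higher and 52% lower, followed by chromosome 2 at -0.155 (1096 genes, 25.8% higher and 44.6% lower). Between the hairpins chromosome 10 differed by a median of 0.039 and chromosome 14 by 0.162. With each gene centred on its chromosome's median, a setting chosen after seeing the data, the interferon-stimulated genes had a median of -3.23. Copy number was not measured, and its part in these values was not tested.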
